A study of Macaca mulatta with 8 samples.

Results

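Oxidative phosphorylation subunits are the proteins of the mitochondrial respiratory chain and of the ATP synthase that it powers. Their genes were taken by name from a rhesus macaque oocyte array, as probe sets annotated with a single gene symbol that began with NDUF, UQCR, COX plus a digit, or ATP5, or that was an SDH gene or CYC1. The rule took 121 of the 24956 probe sets with 1 symbol (52766 probe sets in all), and they stood for 72 gene symbols. Of these symbols, 58 name subunits of complexes I to V and 14 name assembly factors or regulators, which the same prefixes also take in. A further 12 probe sets that carried a second symbol were left out, and 0 subunits encoded by the mitochondrial genome were named, so the values below concern transcripts of nuclear genes.

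Both groups were oocytes at metaphase II, the stage at which a mature egg awaits fertilization, each pool made of 4 oocytes. In the in vitro group (4 arrays) the oocytes had matured in culture, and in the in vivo group (4 arrays) they had matured in the animal. RNA of each pool was amplified in 2 rounds, labelled with biotin and read on a single-colour Affymetrix array as a MAS5 signal, a linear brightness in arbitrary units after each array was scaled. The labels call the arrays biological replicates without naming the animals, so a p-value here covers the spread among pools only. With scaled signals from a pool, less of a transcript in each oocyte and fewer oocytes in a pool that carry it cannot be told apart.

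The respiratory chain sits in the inner mitochondrial membrane. Complex I takes electrons from NADH and complex II takes them from succinate, both passing them to coenzyme Q. Complex III hands them on to cytochrome c and complex IV to oxygen, while protons pumped at complexes I, III and IV drive complex V, the ATP synthase. The mature egg relies on mitochondrial ATP for its spindle and for early cleavage, and its mitochondria are inherited by the embryo.

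Of the 121 probe sets, 98 passed the filter on dim signal and were tested. They covered 69 genes. The filter kept the probe sets above the 50th percentile of mean log2 signal over the 8 arrays. Among the tested probe sets, 82 lay above the array's background on all 8 arrays, and 0 of the 23 untested ones did. Background is the 95th percentile of 59 unspiked control probe sets and ran from 15.7 to 27.0 over the arrays. The genes NDUFV3, COX4I2 (an isoform of complex IV subunit 4) and NDUFA4L2 had no tested probe set.

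The differences measured between the 2 kinds of oocyte were small and lay more often toward lower signal after culture, but none passed the test. The median was lowest in complex II, which had only 3 tested genes. The direction depended on the arrays kept. Without in vivo replicates 1 and 3, 34 of 69 genes had a negative log2 fold change, and without in vivo replicates 2 and 4, 50 did. These 2 settings were chosen after the arrays had been compared. In vivo replicates 1 and 3 were the highest arrays for these genes, so the counts move this way by construction. The same shares over all named genes are not given. With limma across all 26383 tested probe sets and Benjamini-Hochberg adjustment, 0 of 98 member probe sets passed an adjusted p of 0.05, beside 0.144% of all tested probe sets, and the smallest adjusted p was 0.139, at COX7B. At an unadjusted p under 0.05, 11 of 98 probe sets (11.2%) had lower signal in vitro, beside 5.53% of all tested probe sets, and 3 (3.06%) had higher signal in vitro, beside 4.7%. All 4 in vitro arrays lay below all 4 in vivo arrays at 6 probe sets (6.12%), beside 3.11% of all tested probe sets. The opposite separation held at 1 probe set (1.02%), beside 3.17%.

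By gene, at the brightest tested probe set of each, 45 of 69 log2 fold changes (in vitro minus in vivo) were negative, beside 51.9% of the 9578 named genes tested. The median over the 55 tested subunit genes was -0.09, beside -0.02 over all named genes. The sizes were small. In 57 of 69 genes the log2 fold change was under 0.5 either way, and UQCRB was the 1 gene at which it reached 1, beside 2.74% of named genes. The median SE of these fold changes was 0.23, so a difference of the size most genes showed was not detectable with 4 arrays a group.

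**Figure D1:**
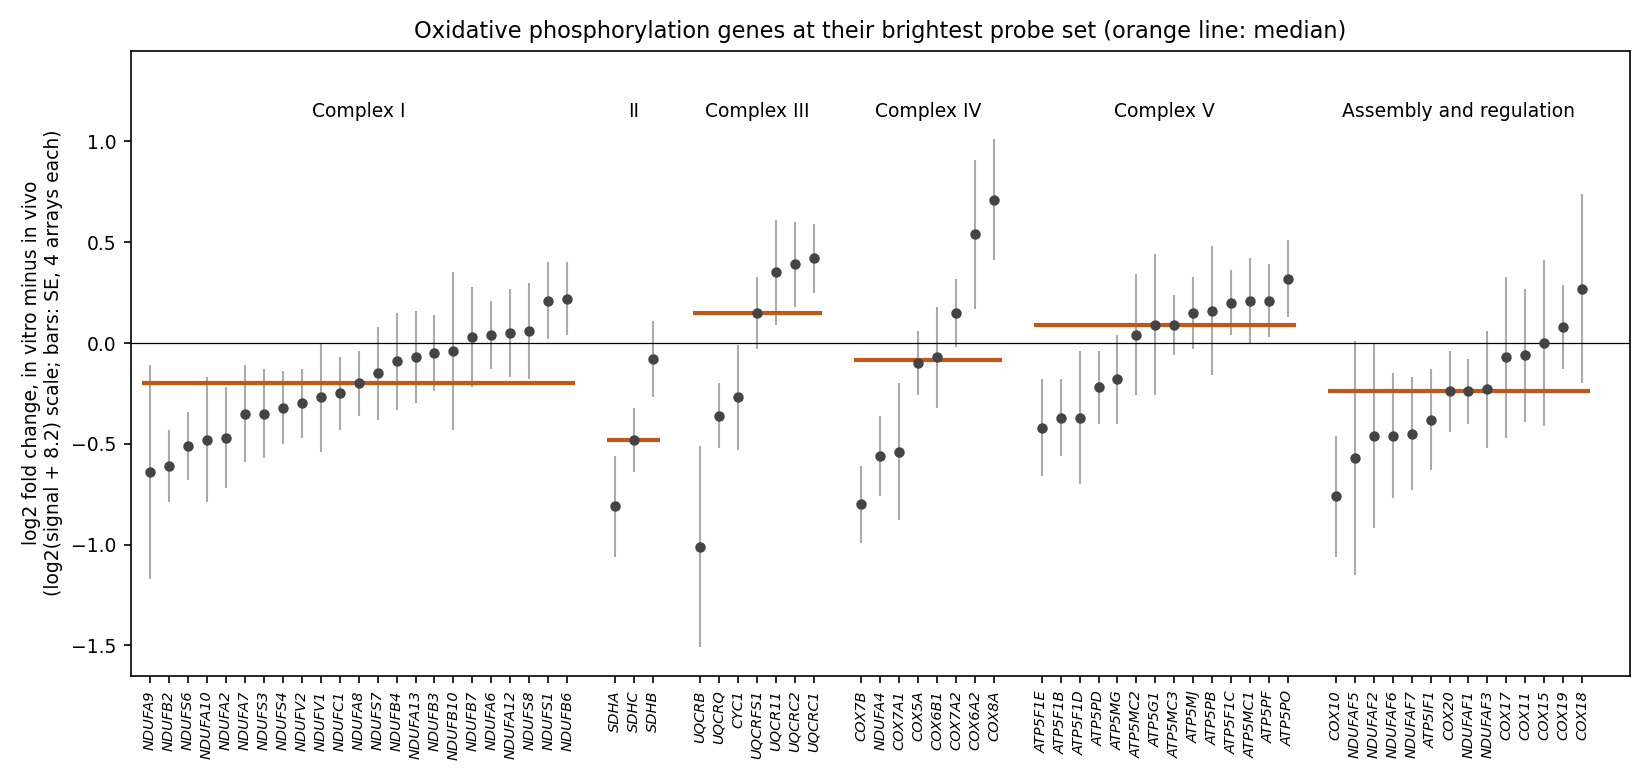
Each point is a gene at its brightest tested probe set, with the log2 fold change (in vitro minus in vivo, on the log2(signal + 8.2) scale) on the vertical axis, bars of 1 SE and genes ordered within each complex; "II" marks complex II and orange lines are medians. The medians run from -0.48 for complex II to 0.15 for complex III, and the genes of each complex except complex II lie on both sides of 0.

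Complex I is the largest of the complexes, built of catalytic core subunits and many accessory ones. Of its 23 tested genes, 17 had a negative and 6 a positive log2 fold change, with a median of -0.20 and a range of -0.64 to 0.22. At an unadjusted p under 0.05, 3 of its 35 tested probe sets had lower signal in vitro, beside 5.53% of all tested probe sets. None of the 35 had higher signal, beside 4.7%.

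NDUFB2, an accessory subunit of the membrane arm, had signals of 1772.1, 2186.9, 1535.8 and 1993.8 in vitro, against 2360.4, 2451.2, 3471.4 and 3223.6 in vivo. Every in vitro array lay below every in vivo array, and in vivo replicates 3 and 4 were the brightest. The log2 fold change was -0.61 ± 0.18 (SE, limma adjusted p = 0.277). NDUFS6, an accessory subunit with a zinc site that is needed late in assembly, had 1056.2, 1242.7, 1140.0 and 1131.7 in vitro, against 1357.5, 1480.5, 1876.1 and 1838.7 in vivo. The groups did not overlap here either, and the in vitro arrays lay close together (log2 fold change -0.51 ± 0.17 SE, limma adjusted p = 0.332). Its dimmer probe sets showed less of this, with log2 fold changes of -0.07 and -0.19 and overlapping groups.

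The nuclear core subunits, which carry the flavin and the iron-sulfur clusters from NADH to coenzyme Q, all had overlapping groups. NDUFS1, the iron-sulfur subunit that receives electrons near the flavin, had a log2 fold change of 0.21 ± 0.19 (SE, limma). NDUFV2 (-0.30), NDUFV1 (-0.27), NDUFS3 (-0.35) and NDUFS7 (-0.15) had negative log2 fold changes, and NDUFS8 had 0.06. NDUFV1, which binds NADH, was brightest on in vivo replicates 1 and 3, with 259.9, 302.5, 211.4 and 228.0 in vitro, against 410.7, 255.2, 426.9 and 184.1 in vivo. NDUFA2 (log2 fold change -0.47) and NDUFS4 (-0.32), accessory subunits, came next to NDUFB2 and NDUFS6 in order of p.

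Complex II, the succinate dehydrogenase that also belongs to the citric acid cycle, had the lowest median of any complex. Its 3 measured genes all had negative log2 fold changes, with a median of -0.48. SDHA, the flavin-bearing subunit that oxidizes succinate, had signals of 370.9, 373.7, 334.4 and 293.4 in vitro, against 703.1, 533.2, 912.7 and 387.3 in vivo. The in vitro arrays formed a narrow band below all in vivo arrays, which ranged widely, with in vivo replicate 4 near the band and replicates 1 and 3 far above it. The log2 fold change was -0.81 ± 0.25 (SE, 95% interval -1.33 to -0.28, limma adjusted p = 0.282). It was -1.21 without in vivo replicates 2 and 4 and -0.40 without in vivo replicates 1 and 3.

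SDHC, a membrane anchor of the same enzyme, had 897.4, 727.4, 738.8 and 868.9 in vitro, against 1089.8, 1155.3, 1154.3 and 1118.9 in vivo. Here the in vivo arrays were the narrow band, and the gap between the groups was wider than the spread of either one (log2 fold change -0.48 ± 0.16 SE, 95% interval -0.83 to -0.14, limma adjusted p = 0.332). SDHB, the iron-sulfur subunit between them, showed no such separation, with 753.9, 768.0, 544.5 and 543.9 in vitro, against 737.5, 674.3, 618.2 and 691.2 in vivo. Its log2 fold change was -0.08, with a 95% interval of -0.48 to 0.33. SDHD, the other anchor, was not analysed here.

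**Figure D2:**
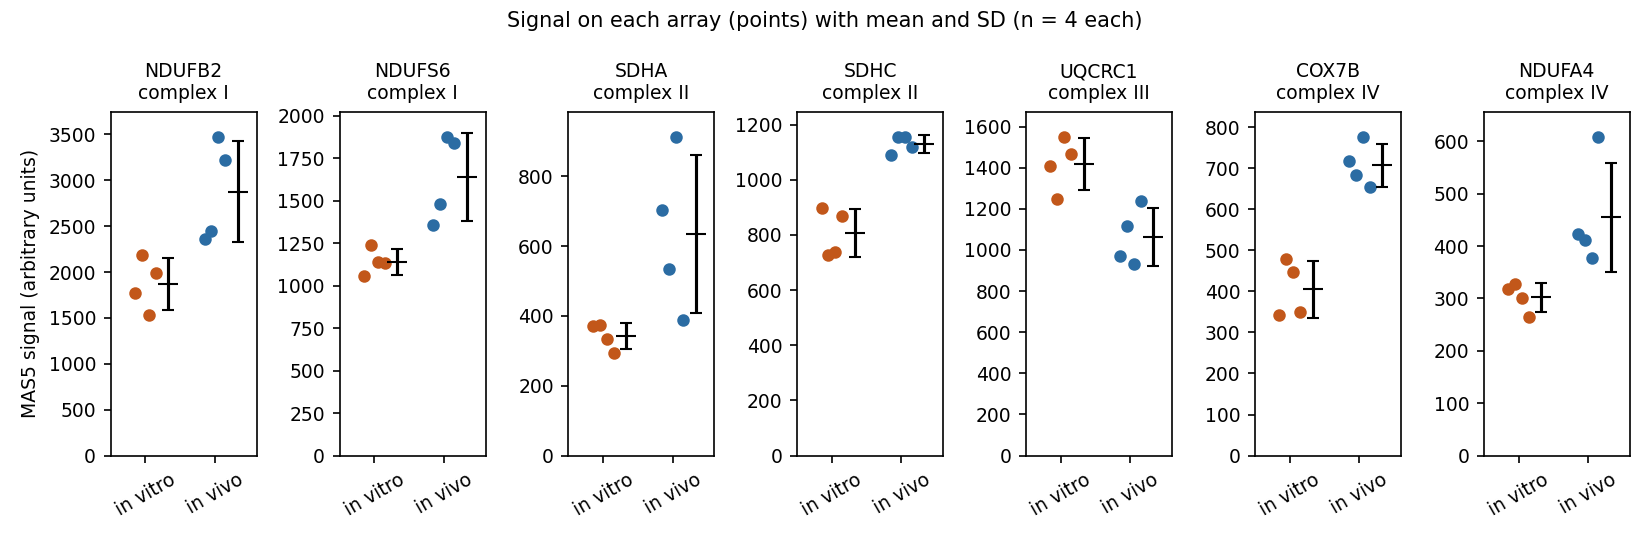
MAS5 signal (vertical axis, arbitrary units, starting at 0 with a separate scale for each probe set) on each of the 4 in vitro (orange) and 4 in vivo (blue) arrays for the 7 probe sets whose groups do not overlap, with the mean and SD beside the points. UQCRC1 is the single one of the 7 with higher in vitro signals, and the in vivo arrays of the SDHA panel range from 387.3 to 912.7.

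Complex III had 7 tested genes, 4 with a positive and 3 with a negative log2 fold change, and a median of 0.15. The core proteins UQCRC1 and UQCRC2 form the matrix-facing base of the complex. UQCRC1 was the one member whose brightest probe set had all in vitro arrays on top, with 1406.6, 1250.3, 1549.5 and 1465.4 in vitro, against 971.9, 1116.2, 929.6 and 1236.5 in vivo. The gap was narrow, since in vitro replicate 2 exceeded in vivo replicate 4 by little (log2 fold change 0.42 ± 0.17 SE, limma adjusted p = 0.413).

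The other UQCRC1 probe sets pointed the opposite way. The second brightest had 428.6, 323.4, 261.2 and 312.8 in vitro, against 668.1, 405.6, 1217.2 and 335.5 in vivo, a log2 fold change of -0.81 (limma adjusted p = 0.417). The third had a log2 fold change of -0.64, and both of these probe sets were brightest on in vivo replicates 1 and 3. No direction for UQCRC1 transcripts can be given from probe sets that differ in sign.

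UQCRC2 had a log2 fold change of 0.39 ± 0.21 (SE, limma). UQCRFS1, the Rieske iron-sulfur protein, had 0.15 ± 0.18 (SE, limma). CYC1, the cytochrome c1 heme protein that reduces cytochrome c, had -0.27 ± 0.26 (SE, limma), and its 2 brightest arrays were in vivo replicates 1 and 3. Among the small subunits, UQCRQ had 1620.8, 2089.4, 1693.2 and 1788.5 in vitro, against 2251.5, 2076.0, 2767.5 and 2156.2 in vivo. In vitro replicate 2 alone reached into the in vivo range (log2 fold change -0.36 ± 0.16 SE, limma adjusted p = 0.476). UQCR11 had a log2 fold change of 0.35, and -0.18 at its dimmer probe set. UQCRB was dim, with log2 fold changes of -1.01 at one probe set and 1.47 at the other. Its brighter probe set read 38.2, 11.1, 43.8 and 1.7 in vitro, against 31.2, 42.8, 58.1 and 48.1 in vivo, close to background.

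Complex IV, cytochrome c oxidase, had 8 tested genes, 5 with a negative and 3 with a positive log2 fold change, and a median of -0.08. COX7B, a small subunit of its membrane part, had 342.9, 480.2, 447.6 and 350.2 in vitro, against 717.5, 683.8, 776.4 and 654.2 in vivo. The groups stood well apart, the brightest in vitro array lying below the dimmest in vivo array by more than the spread within either group. The log2 fold change was -0.80 ± 0.19 (SE, 95% interval -1.20 to -0.41, limma adjusted p = 0.139), a signal 0.572 times that of the in vivo pools. Its probe set is of a kind that can match more than 1 transcript.

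NDUFA4, first assigned to complex I and now counted as a subunit of complex IV, had 317.2, 326.9, 301.1 and 264.0 in vitro, against 423.3, 411.4, 376.8 and 608.5 in vivo. The groups did not overlap, and in vivo replicate 4 was the brightest array (log2 fold change -0.56 ± 0.20 SE, limma adjusted p = 0.370). COX8A, a small subunit present in most tissues, lay the other way, with 232.4, 166.8, 167.0 and 130.6 in vitro, against 169.2, 88.2, 58.6 and 117.1 in vivo. Its groups overlapped through in vivo replicate 1 (log2 fold change 0.71 ± 0.30 SE, limma adjusted p = 0.443).

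Among paired isoforms, COX7A2, the form found in most tissues, had a log2 fold change of 0.15 and COX7A1, the form of heart and skeletal muscle, had -0.54 ± 0.34 (SE, limma) at a low signal. COX6A2, another heart and muscle form, was also dim and had 0.54 ± 0.37 (SE, limma). COX6B1, which faces cytochrome c, had -0.07. COX6A1, COX4I1 and the testis forms COX6B2 and COX8C were not analysed here.

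In complex V, the ATP synthase, 0 of 20 tested probe sets had an unadjusted p under 0.05. Over all tested probe sets 4.7% were higher and 5.53% lower at that threshold, so few would be looked for among 20. The 14 tested genes of complex V had log2 fold changes between -0.42 and 0.32 with a median of 0.09, 9 positive and 5 negative (smallest limma adjusted p 0.539). Of the F1 subunits, which form the catalytic head and its shaft, ATP5F1B (the catalytic beta subunit) had a log2 fold change of -0.37 ± 0.19 (SE, limma). Its other tested probe set had 0.06. The shaft subunits ATP5F1C, ATP5F1D and ATP5F1E had log2 fold changes of 0.20, -0.37 and -0.42, and ATP5F1A was not analysed here. The other tested probe set of ATP5F1D had 0.09.

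The c-ring subunits turn in the membrane as protons pass. ATP5MC3 had 5525.3, 6090.2, 5373.1 and 5423.5 in vitro, against 4823.8, 5582.7, 4782.7 and 5980.7 in vivo. These arrays overlapped widely, and the 95% interval of the log2 fold change, -0.23 to 0.40, was among the narrowest here (fold change 0.09). ATP5MC1 had a log2 fold change of 0.21 (-0.26 at its dimmer probe set) and ATP5MC2 had 0.04. Probe sets under the older symbol ATP5G1 were kept apart from ATP5MC1, since their Entrez identifiers differ from it, and the brighter had a log2 fold change of 0.09. In the stator, which holds the head still, ATP5PO had 0.32 ± 0.19 (SE, limma) and ATP5PF had 0.21 ± 0.18 (SE, limma).

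The assembly factors and regulators that share these name prefixes lay more to one side, with 12 of 14 log2 fold changes negative and a median of -0.24. COX10, which makes the heme A precursor for complex IV, had 47.0, 77.7, 60.5 and 120.9 in vitro, against 168.8, 120.9, 145.6 and 89.1 in vivo. In vitro replicate 4 reached the level of in vivo replicate 2 and exceeded in vivo replicate 4, while the other in vitro arrays lay below all in vivo arrays (log2 fold change -0.76 ± 0.30 SE, limma adjusted p = 0.413). The other COX10 probe set gave -0.53. NDUFAF1, NDUFAF6 and NDUFAF7, which assist complex I assembly, had log2 fold changes of -0.24, -0.46 and -0.45. ATP5IF1, the inhibitor that stops the ATP synthase from running in reverse, had -0.38 ± 0.25 (SE, limma).

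Taken array by array, the difference was partly one of particular pools. Each array's level of a complex was the median, over its genes, of the log2 difference from the mean of the 8 arrays. Over the 55 subunit genes it was 0.04, 0.04, -0.12 and -0.14 in vitro, against 0.16, 0.03, 0.24 and 0.02 in vivo. In vivo replicates 1 and 3 stood on top, in vitro replicates 3 and 4 at the bottom, and the remaining arrays lay together. For complex I it was 0.00, 0.04, -0.18 and -0.15 in vitro, against 0.19, 0.06, 0.24 and 0.05 in vivo, with a narrow gap between the groups. For complex II the level was -0.09, -0.28, -0.36 and -0.28 in vitro, against 0.19, 0.23, 0.27 and 0.06 in vivo. For complex V it was 0.09, 0.10, -0.08 and -0.09 in vitro, against 0.07, 0.02, 0.35 and -0.11 in vivo, so that the groups overlapped throughout.

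**Figure D3:**
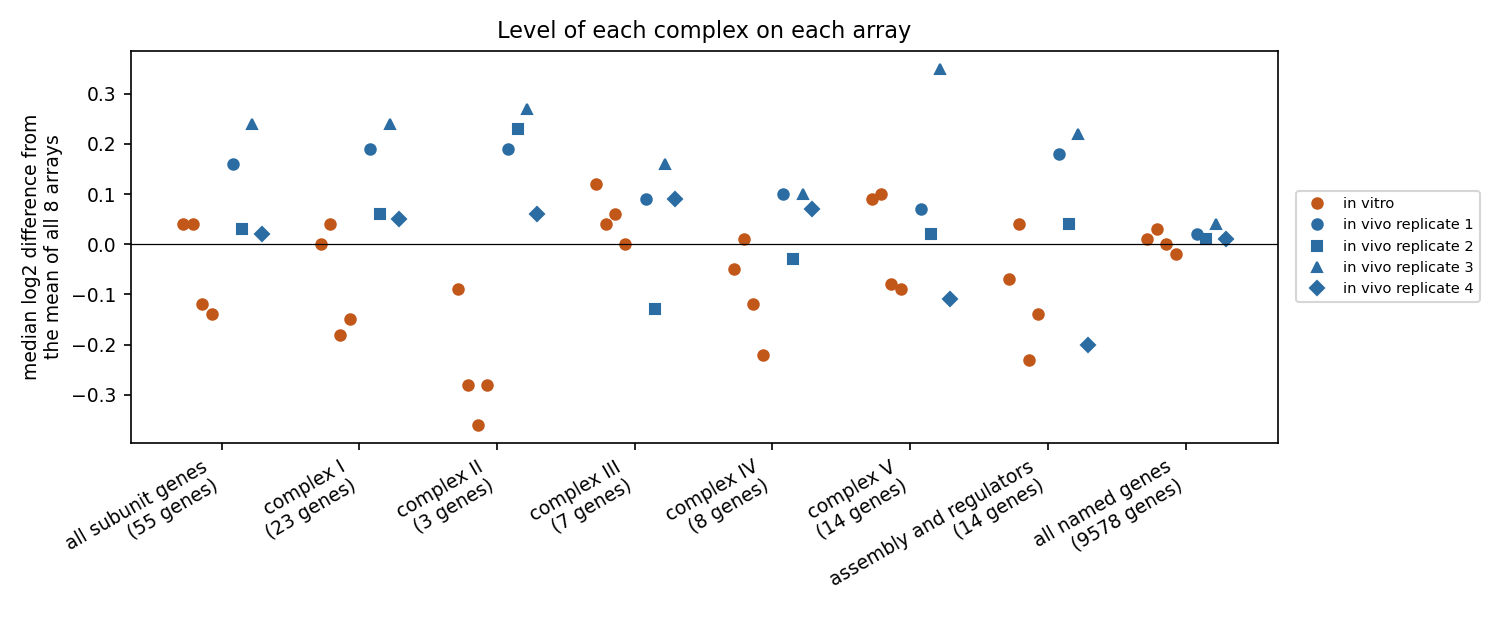
Each point is 1 array; the vertical axis is the median over the genes of a complex of the log2 difference from the mean of all 8 arrays, with in vitro arrays to the left and the 4 in vivo arrays marked by shape. Complex II separates the groups (at most -0.09 in vitro, at least 0.06 in vivo), complex I does so narrowly (at most 0.04 in vitro, at least 0.05 in vivo), complexes III, IV and V do not, and in vivo replicate 3 is the highest array or level with it in every complex.

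Of the 69 genes, 22 (31.9%) were brightest on in vivo replicate 3 and 14 (20.3%) on in vivo replicate 1, beside 20.4% and 15.7% of all named genes. In vitro replicate 3 was the brightest for 2 genes and in vivo replicate 2 for 2. The spread within a group was smaller for subunit genes than for genes at large. The median SD on the log2 scale was 0.19 in vitro and 0.31 in vivo for subunits, beside 0.28 and 0.39 for all named genes. These sets were not matched for brightness. By array, 76.9% to 86.0% of member probe sets exceeded background, beside 49.9% to 60.9% of all probe sets. The part of brightness in the smaller spread was not tested.

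In vivo replicates 1 and 3 also stood apart in the first of 3 measures of amplification, and less or not at all in the others. The ratio of the 5′ to the 3′ control probe set of the elongation factor transcript EEF1A1, which drops as amplified copies get shorter, was 0.256, 0.204, 0.234 and 0.279 in vitro, against 0.370, 0.130, 0.368 and 0.078 in vivo. The 2 highest and the 2 lowest ratios were all among in vivo arrays. The same ratio of actin was 0.0196, 0.0113, 0.0093 and 0.0144 in vitro, against 0.0133, 0.0067, 0.0195 and 0.0093 in vivo, with in vitro replicate 1 on top. That of GAPDH was 0.037, 0.021, 0.032 and 0.034 in vitro, against 0.041, 0.020, 0.048 and 0.040 in vivo, so that in vivo replicate 4, the lowest for EEF1A1, lay level with in vivo replicate 1. SDHA, CYC1, NDUFV1 and the 2 dimmer UQCRC1 probe sets were each brightest on the 2 arrays with the highest EEF1A1 ratio. Others were not: NDUFB2 and NDUFS6 were brightest on in vivo replicates 3 and 4, and NDUFA4 on in vivo replicate 4, which had the lowest ratio. These examples were picked after their values were seen, and the share of genes with either pattern is not given. Without in vivo replicates 1 and 3, which leaves 2 in vivo arrays, the median of the subunit genes was 0.01 and that of complex I was -0.01, while without in vivo replicates 2 and 4 the subunit median was -0.16. With the log2 EEF1A1 ratio as a covariate in limma, which kept all 8 arrays, the median was -0.14 for the subunit genes and -0.18 for complex I. In that fit, 3 of 98 member probe sets had an adjusted p under 0.05, beside 292 of all 26383 tested probe sets. They were SDHA (-0.94, adjusted p = 0.0309), the second UQCRC1 probe set (-1.02, adjusted p = 0.0457) and COX7B (-0.82, adjusted p = 0.0485). These settings were chosen after the arrays had been compared, and the part of amplification in the differences was not tested beyond them.

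Probe sets of the same gene gave a further measure of certainty. Of the 24 genes with several tested probe sets, 12 had all in 1 direction and 12 did not. The 5 probe sets of NDUFA6, an accessory subunit of complex I, lay between 0.03 and 0.21. NDUFA10 had log2 fold changes of -0.48 and 0.50, and NDUFV2 had -0.30 and 0.64. SDHA, SDHC, COX7B, NDUFB2 and NDUFA4 rested on 1 tested probe set each.

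**Figure D4:**
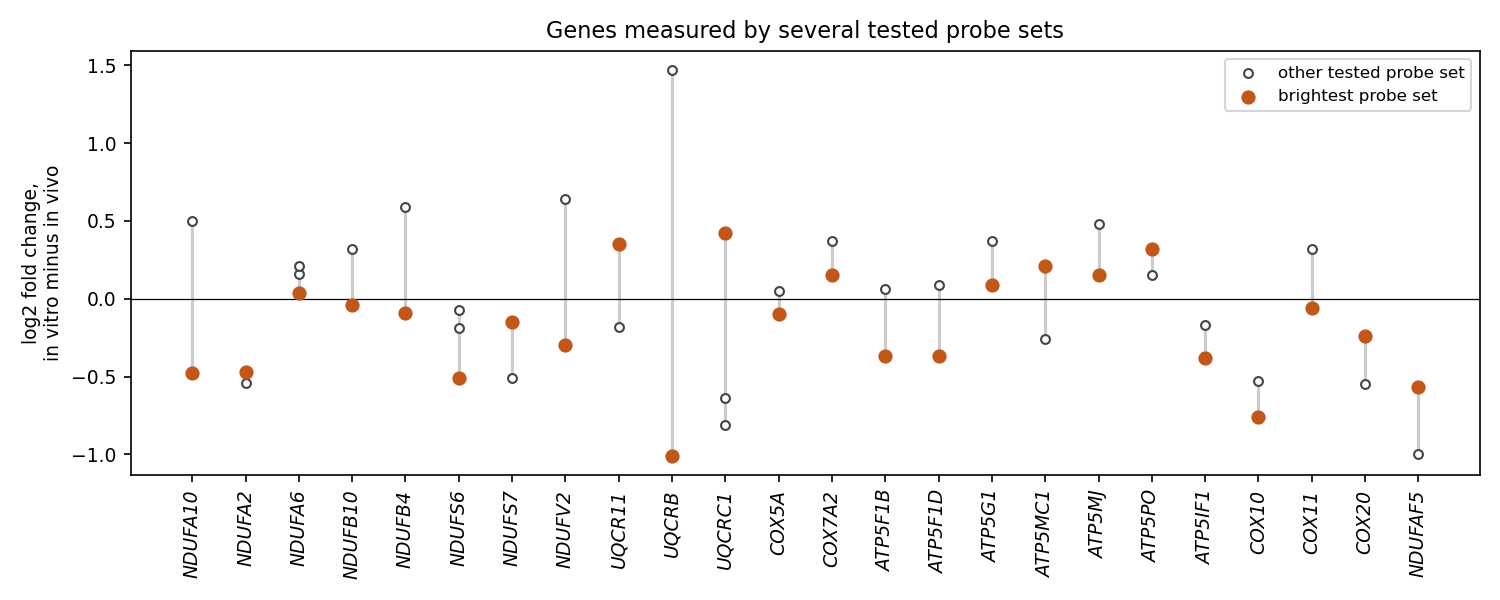
For each of the 24 genes with several tested probe sets, the vertical axis gives the log2 fold change (in vitro minus in vivo) of the brightest probe set (filled) and of the others (open), joined by a line. The line crosses 0 for 12 genes, most widely for UQCRB (-1.01 and 1.47) and UQCRC1 (0.42 and -0.81).

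Other genes of the pathway, taken from lists outside the name rule, showed 0 past the adjusted threshold in either direction. Of 24 tested assembly factors, 14 had a positive and 10 a negative log2 fold change, with a median of 0.04. ATPAF2, which helps assemble the F1 head, had -0.51, PET100, a factor for complex IV, had -0.42, and FOXRED1, a factor for complex I, had 0.50. Among 13 tested genes of electron carriers and coenzyme Q synthesis the median was 0.08. PDSS1, a subunit of the enzyme that makes the coenzyme Q side chain, had 110.6, 161.7, 246.5 and 208.0 in vitro, against 269.6, 254.2, 424.1 and 284.3 in vivo. All its in vitro arrays lay below all in vivo arrays (log2 fold change -0.76 ± 0.27 SE, limma adjusted p = 0.348). Its partner subunit PDSS2 had 0.48, and COQ9 had -0.28. Of 10 tested regulators of mitochondrial biogenesis and mitochondrial DNA, the median was -0.18. The polymerase gene POLG had -0.51, and the transcription factor genes CREB1 and YY1 had -0.53 and 0.24.

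The pools carried oocyte transcripts throughout. All 11 tested oocyte markers lay above background on all 8 arrays, and 0 of 11 passed the adjusted threshold (summed signal 34007 to 42913 in vitro, against 39961 to 51842 in vivo). Of 15 tested markers of granulosa and cumulus cells, the follicle cells around an oocyte, 11 lay above background on all 8 arrays (summed signal 22146 to 31273 in vitro, against 23515 to 25848 in vivo). INHBA (log2 fold change 3.08) and STAR (2.60) passed and were higher in vitro. HSD3B2 (2.28, limma adjusted p = 0.214) did not pass, but all its in vitro arrays lay above all in vivo arrays. INHA had 0.59 (limma adjusted p = 0.37), with overlapping groups. By sign, 8 of the 15 log2 fold changes were negative and 7 positive, with a median of -0.03. Of the tested blood markers, 0 of 5 lay above background on all arrays (summed signal 78 to 171 in vitro, against 170 to 248 in vivo). The part of surrounding cells in the differences of subunit transcripts was not tested. Across the arrays, 49.9% to 60.9% of all probe sets exceeded background.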

How the data were processed

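The authors deposited MAS5 signals, a linear intensity per probe set, as named without a version in the submitters' processing notes. Global scaling is already in these values, and MAS5 treats each probe set alone, so dim ones vary strongly. The 52865 probe sets included 99 controls, which were left out of the tests. Symbols came from the platform annotation, and Entrez identifiers of 119 of 121 member probe sets were found in a RefSeq table. No coordinates or sequences are given.

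Signals were taken as log2(signal + 8.2), the 25th percentile of signals, which understates changes of dim transcripts. The 26383 probe sets over the 50th percentile of mean log2 signal entered limma 3.58.1 (R 4.3.3; lmFit, eBayes with trend, Benjamini-Hochberg over all of them). The 95% intervals use limma's moderated SE. The fit was checked on simulated data.

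Each gene was represented by its brightest tested probe set. Named genes were the 5 with smallest p in complexes I, III, IV and V and in the assembly group, all SDH genes, those with non-overlapping groups, core and F1 subunits, isoform families, ATP5IF1, and the 3 with smallest p of each outside list. Members and lists were chosen with earlier results of these data known. Other genes named for differing probe sets (NDUFA6, NDUFA10) were chosen after their values were seen.

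Same-numbered arrays did not deviate together (correlations 0.016, -0.013, -0.047 and -0.025 over tested probe sets), so no pairing was used.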

Additional observations from a re-analysis of the deposited data

Results flagged for a closer look

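UQCRFS1, the Rieske iron-sulfur protein of complex III, read 1625.8 on in vitro replicate 4, apart from the other in vitro arrays at 1485.8 to 1507.4. The gap to the nearest array was 0.846 of the group's range, above Dixon's 95% critical value for 4 samples. It was the 1 such value among 98 groups of 4 arrays examined, where chance gives about 1 in 20, and the whole group spans a narrow range.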

How the results depend on the processing

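The count of 0 member probe sets past the adjusted threshold held under each of these alternatives: other pseudocounts (1 and 27.7), no filter or a filter at the 75th percentile, quantile normalization, median centring, no intensity trend, array weights, the replicate block, probe sets without the _s_at and _x_at kinds, and each array left out. With the replicate block, a paired fit by array number, 10 probe sets were lower at an unadjusted p under 0.05. The block cannot move a log2 fold change in this balanced design, so the complex medians stayed the same. Probe sets higher at an unadjusted p under 0.05 numbered 5 with no filter (where all 121 were tested), with median centring and with array weights. Probe sets wholly higher in vitro numbered 2 with quantile normalization and with median centring. Without the _s_at and _x_at kinds, 6 were lower at an unadjusted p, and the medians were -0.65 for complex II and 0.15 for complex IV, which turned its sign, with COX7B, COX7A1 and COX6B1 removed. The complex I median was -0.07 with a mean over a gene's probe sets. No share of all tested probe sets is given beside the counts under these alternatives, so the counts cannot be weighed.

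Leaving out 1 array at a time gave 1 to 4 probe sets higher and 6 to 16 lower at an unadjusted p, 1 to 7 wholly higher (7 without in vivo replicate 1), 6 to 11 wholly lower, and medians of -0.29 to -0.12 for complex I, 0.04 to 0.26 for complex III, -0.16 to -0.01 for complex IV and 0.04 to 0.16 for complex V. Smaller groups separate more often by construction, and without shares of all tested probe sets these counts cannot be weighed. The subunit median stayed between -0.19 and -0.07. Genes with a negative log2 fold change numbered 36 to 48 over these alternatives. Of 744 values of 42 named genes, 14 turned sign (at most 0.37 in size) and 0 passed the threshold. The 744 include the replicate block, no intensity trend and changed filters, where a gene's log2 fold change cannot move or turn sign.

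The following were added after seeing the data. With the EEF1A1 ratio as a covariate, 3 of 98 probe sets passed, beside 292 of all 26383 tested probe sets. At an unadjusted p, 21 (21.4%) were lower, beside 8.66% of all. Without in vivo replicates 2 and 4, which have the lowest ratios, 2 passed (SDHA, adjusted p = 0.0134, and the second UQCRC1 probe set, adjusted p = 0.0158), beside 654 of all tested probe sets; 6 (6.12%, beside 8.41% of all) were higher and 29 (29.6%, beside 10.6%) lower at an unadjusted p, 6 (6.12%, beside 12.6%) wholly higher and 37 (37.8%, beside 15.3%) wholly lower, and the assembly median was -0.44. Without in vivo replicates 1 and 3, 0 passed, beside 182 of all; 11 (11.2%, beside 7.6%) were higher and 7 (7.14%, beside 5.55%) lower at an unadjusted p, 16 (16.3%, beside 12.3%) wholly higher and 12 (12.2%, beside 9.22%) wholly lower, and the medians were -0.01 for complex I and 0.04 for complex IV. The number of arrays and, for UQCRB and other dim probe sets, signal close to background limit these comparisons. The causes were not tested.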
